A study of Oryctolagus cuniculus with 6 samples.

Results

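G1 cyclins, their kinases and the factors that admit a cell to S phase were examined in primary limbal stem cells (LSCs) of the rabbit, the cells that renew the corneal epithelium. The genes were the rows of the deposited count table under the symbols CCND1, CCND2, CCND3, CCNE1, CCNE2, CDK4, CDK6, E2F1, RB1 and MYC, of which 8 were found among 22190 rows. E2F1 was reached through its NCBI gene identifier (100356957), which the table lists as LOC100356957 and describes as the E2F1 transcription factor, and it is counted apart from the 8. CCND1 was not analysed here. In the fresh group (3 libraries), cells grew out of limbal explants from corneas that had not been frozen. In the preconditioned group (3 libraries), rabbit corneas were first kept in liquid nitrogen for 7 days in a cryomedium with serum, dimethyl sulfoxide and 10 ng/mL IL-1β, an inflammatory cytokine, and were then thawed and explanted. Freezing and IL-1β came together, so that their effects cannot be told apart. No allele, strain or age is given, and the animal behind each library is not stated, so that p values measure the spread between these libraries, which may be technical in part.

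In early G1, D-type cyclins bind CDK4 or CDK6 and begin to phosphorylate the retinoblastoma protein, which holds E2F transcription factors in check. Cyclin E with CDK2 completes this step, and freed E2F then switches on genes for DNA synthesis, among them the genes of cyclin E itself. MYC promotes entry into the cycle and growth, while the INK4 and CIP/KIP proteins restrain the kinases. Limbal stem cells cycle slowly in the tissue and enter the cycle after wounding or in culture.

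The libraries held 31952352 to 34327534 counts on genes, and 15029 genes passed the filter on low counts. CPM, read counts set to a common library size with edgeR's TMM factors, are used for 1 gene between libraries, and FPKM, which also divide by gene length, for levels of different genes. A gene was called where edgeR's quasi-likelihood test gave an adjusted p of at most 0.05 over all tested genes and its log2 fold change was 1 or more in size, which held for 2.29% of tested genes (1.08% higher and 1.20% lower in the preconditioned group). Preconditioned replicate 1 lay nearer to the fresh libraries than the other preconditioned libraries did, at 8.13 on the first principal component against 58.3 and 70.4, with the fresh libraries between −53.1 and −41.1. Of the defining markers of limbal and corneal epithelium, KRT5 had 7333 to 11735 CPM over all libraries. PAX6 had 217, 201 and 174 CPM in the fresh and 203, 376 and 459 CPM in the preconditioned libraries (log2 fold change 0.81, adjusted p = 0.11), with overlap. TP63 had 246, 226 and 238 CPM in the fresh and 183, 121.5 and 111.6 CPM in the preconditioned libraries (log2 fold change −0.77, adjusted p = 0.059), lower in every preconditioned one. KRT14 and KRT12 were not analysed here. Of the other genes in that list, KRT15 was low, at 0.987 to 9.70 CPM over all libraries (log2 fold change 0.18, adjusted p = 0.92). KRT3, a differentiation marker in the paper, had 239 to 2654 CPM (log2 fold change −1.21, adjusted p = 0.30). The groups overlapped for both.

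Among the 8 genes, cyclin E1 was the one that passed both cutoffs, and it fell. It was also the one with an adjusted p of at most 0.05 whatever the fold, which 5.08% of tested genes had. The groups did not overlap in CPM for 5 of the 8 genes, CCND2 and CDK6 being higher and CCNE1, CCNE2 and CDK4 lower in the preconditioned group. Such a separation was seen for 36.7% of the genes tested (17.9% higher and 18.8% lower). CCND3, RB1 and MYC overlapped, as did E2F1. Of the 8, 5 had an unadjusted p under 0.05 in edgeR, as did 30.6% of all tested genes. The log2 fold changes of the 8 genes ran from −1.29 to 0.70 with a median of −0.06, beside a median of 0.01 for all tested genes. In these bulk samples, fewer cells that express a gene and less of its RNA per cell cannot be told apart.

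**Figure D1:**
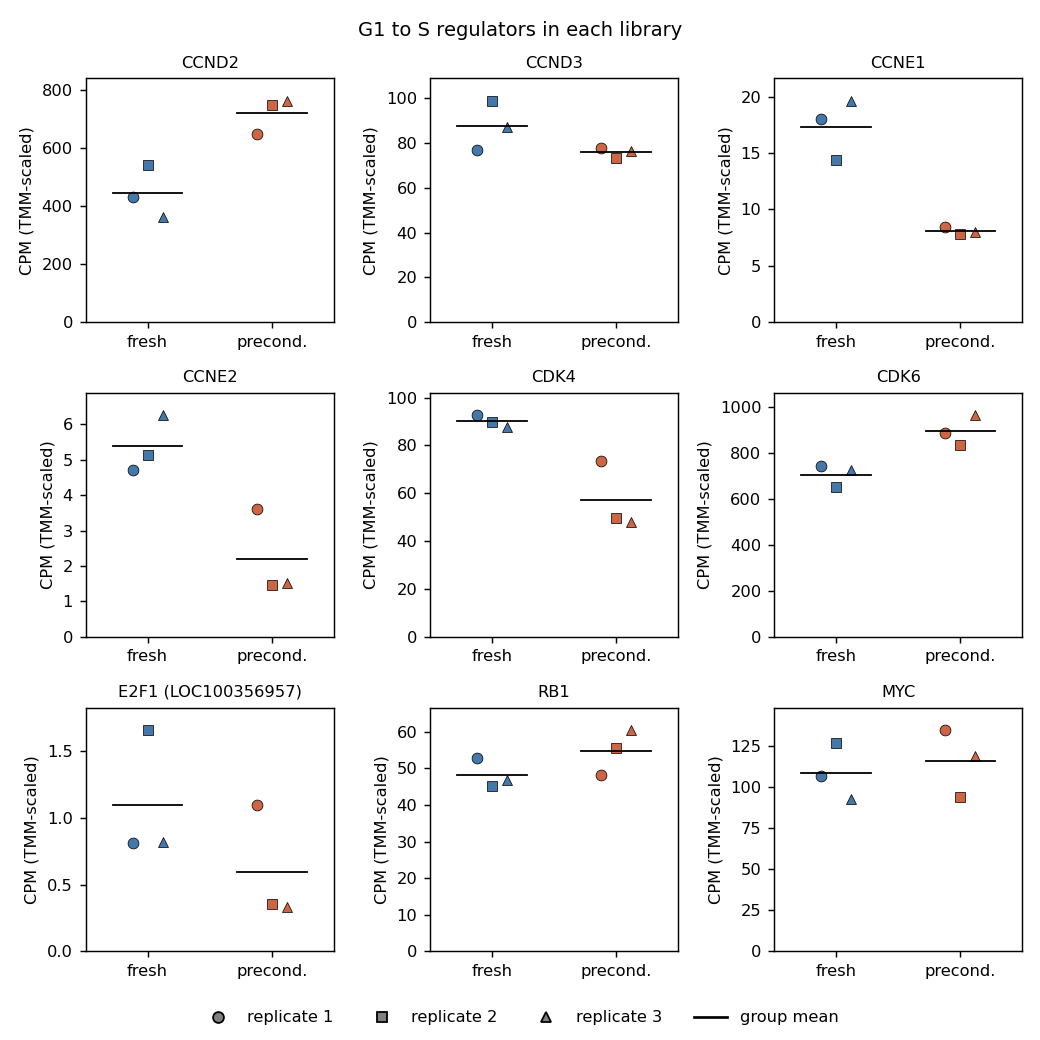
TMM-scaled CPM (y axis, linear from 0) of the 9 G1 to S regulators in the fresh and the preconditioned group, with 1 point per library, the marker shape giving the replicate number, and a line at the group mean. The 3 preconditioned libraries lie close together for CCNE1, at 7.83 to 8.40 CPM, whereas preconditioned replicate 1 stands between the groups for CCNE2 and CDK4.

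Cyclin D2 was the most abundant of these regulators per gene length. In the fresh group, CCND2 had 81.8 ± 16.4 FPKM (SD, n = 3), followed by CDK6 with 68.5 ± 4.70, CDK4 with 67.4 ± 1.53, MYC with 50.2 ± 7.92, CCND3 with 42.6 ± 5.46, RB1 with 16.6 ± 1.30, CCNE1 with 6.20 ± 0.984, CCNE2 with 1.88 ± 0.287 and E2F1 with 0.489 ± 0.217 FPKM. The ranges of neighbours in this order overlapped between CCND2 and CDK6, between CDK6 and CDK4 and between MYC and CCND3, and all other neighbours were apart. In the preconditioned group, CCND2 reached 117.8 ± 8.70 FPKM and stood apart from CDK6 with 77.4 ± 7.11. CDK4, at 38.1 ± 10.3 FPKM, came after MYC, at 47.7 ± 9.68, and its range overlapped with those of MYC and CCND3. CCNE1 and CCNE2 remained near the end of the order, at 2.57 ± 0.159 and 0.690 ± 0.400 FPKM.

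**Figure D2:**
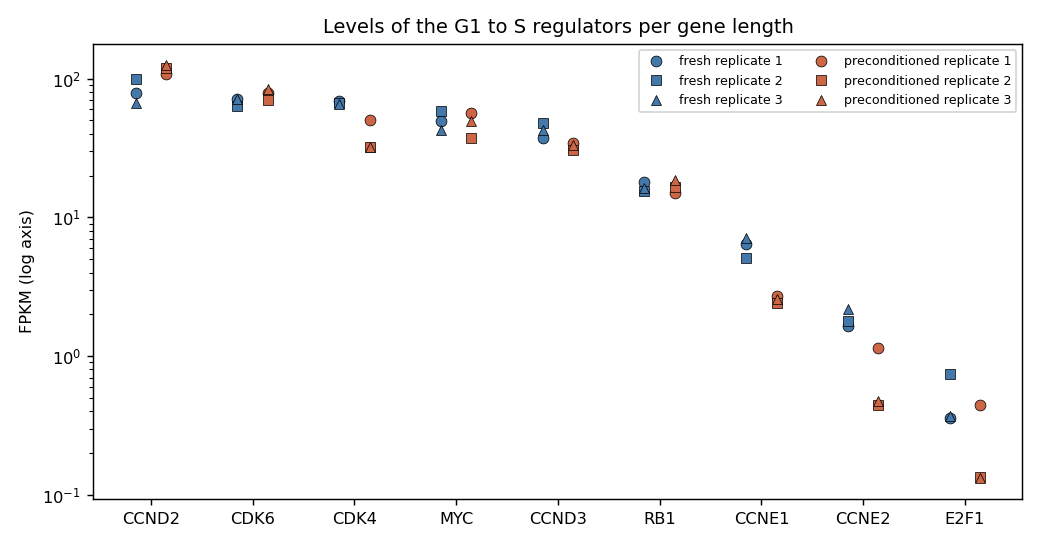
FPKM on a log axis (y) of the 9 regulators, ordered along the x axis by their mean in the fresh group, with 1 point per library and the groups side by side. Levels range from over 100 FPKM for CCND2 in the preconditioned libraries to under 1 FPKM for E2F1 in every library, and CDK4 lies beside CDK6 in the fresh libraries and below it in the preconditioned ones.

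Of the D-type cyclins, which couple growth signals to CDK4 and CDK6, CCND2 (gene 100009036) had 429, 540.1 and 362 CPM in fresh replicates 1 to 3 and 648, 747 and 763 CPM in preconditioned replicates 1 to 3. Every preconditioned library was above every fresh one. The log2 fold change (log2 difference, preconditioned minus fresh) of CCND2 was 0.70 (standard error 0.17, 1.62-fold), with an adjusted p of 0.055, so that it passed neither cutoff. Over the alternatives its adjusted p ran from 0.0077 (DESeq2) to 0.18 (without preconditioned replicate 2). Its log2 fold change ran from 0.53 to 0.86, under the cutoff in all of them. CCND3 (gene 100009038) had 76.9, 99.0 and 87.4 CPM in fresh LSCs and 77.8, 73.2 and 76.6 CPM in preconditioned LSCs. The preconditioned libraries lay close together, 1 just above and 2 below the lowest fresh library, and the log2 difference was −0.21 (standard error 0.12, adjusted p = 0.27). Without TMM scaling, in FPKM, CCND3 was separated, with 37.2, 48.1 and 42.6 against 34.4, 30.6 and 33.4.

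The CDK4 and CDK6 kinases, which share the D-type cyclins as partners, had opposite signs. CDK4 (gene 100009039) had 92.6, 89.8 and 87.6 CPM in the fresh libraries and 73.5, 49.8 and 48.0 CPM in the preconditioned ones. The fresh libraries differed little among themselves, all preconditioned libraries were lower, and replicate 1 was the least so. The log2 fold change of CDK4 was −0.66 (standard error 0.17, adjusted p = 0.065). Over the alternatives its adjusted p ran from 0.004 (without preconditioned replicate 1) to 0.21 (without preconditioned replicate 2), and in none of them did the fold change reach the cutoff. CDK6 (gene 100009040) had 741, 649 and 725 CPM in fresh LSCs and 885, 833 and 963 CPM in preconditioned LSCs. Its groups were separated in CPM, with a log2 difference of 0.34 (standard error 0.12, adjusted p = 0.11), but overlapped in FPKM, where CDK6 had 71.6, 63.1 and 70.8 against 78.3, 69.8 and 83.9. With library size alone and with both limma fits on FPKM the log2 difference of CDK6 was 0.17.

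Within each library, shares of the summed FPKM do not depend on how libraries are scaled. CDK4 made up 49.0%, 51.6% and 48.2% of CDK4 plus CDK6 in the fresh libraries and 39.0%, 31.5% and 27.8% in the preconditioned libraries. The share went from nearly equal parts to a CDK6 majority in all 3 preconditioned libraries, a difference of −16.9 percentage points (−5.33 points in shares of CPM, which are not per length and where CDK6 led in both groups; exact permutation test, two-sided, p = 0.1, adjusted p = 0.15 over 3 shares). CCND2 made up 67.9%, 67.4% and 61.1% of CCND2 plus CCND3 in the fresh libraries and 76.0%, 79.5% and 79.1% in the preconditioned libraries. The groups were again separated, with a difference of 12.7 points (7.11 points in shares of CPM; exact permutation test, two-sided, p = 0.1, adjusted p = 0.15), and 0.1 is the smallest p that 3 libraries against 3 allow. CCNE1 made up 76.6% ± 2.81 of CCNE1 plus CCNE2 in fresh LSCs and 79.7% ± 8.14 in preconditioned LSCs (SD, n = 3), and these overlapped (exact permutation test, p = 0.6).

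**Figure D3:**
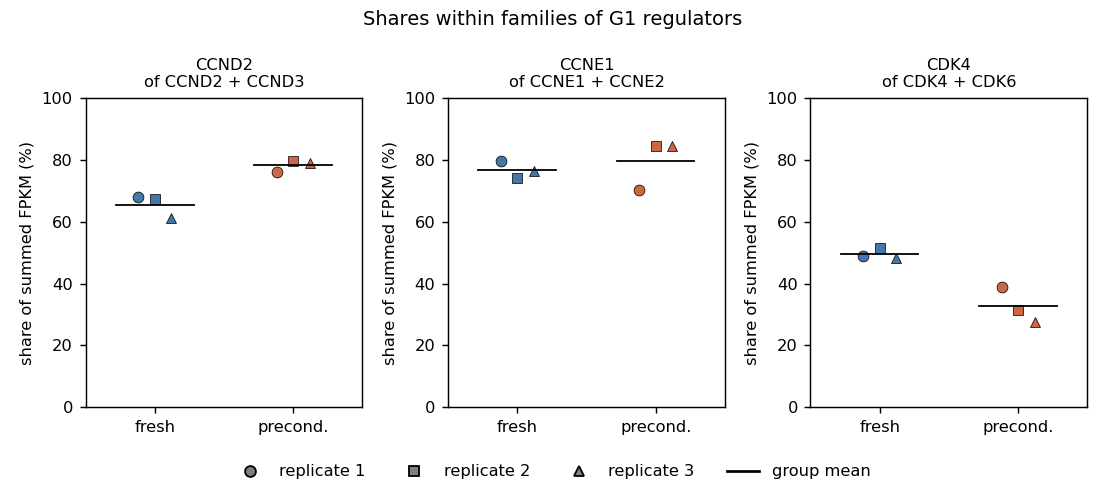
Share of summed FPKM in percent (y axis, 0 to 100) for CCND2 within CCND2 plus CCND3, CCNE1 within CCNE1 plus CCNE2 and CDK4 within CDK4 plus CDK6, with 1 point per library and a line at the group mean. The CDK4 share is at most 39.0% in the preconditioned libraries and at least 48.2% in the fresh ones, while the CCNE1 shares of the groups overlap.

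The E-type cyclins, which activate CDK2 late in G1, were both lower in every preconditioned library. CCNE1 (gene 100134864) had 18.0, 14.3 and 19.7 CPM in fresh LSCs and 8.40, 7.83 and 7.997 CPM in preconditioned LSCs. The spread of the preconditioned libraries (SD 0.290 CPM) was far smaller than the distance to the lowest fresh library. CCNE1 fell by 1.10 on the log2 scale (standard error 0.18, 2.15-fold lower, adjusted p = 0.033). Its adjusted p was 0.081 to 0.14 when fresh replicate 1, 2 or 3 or preconditioned replicate 2 or 3 was left out, and 0.010 without preconditioned replicate 1. CCNE2 (gene 100134867) had 163, 183 and 229 counts in the fresh libraries and 119, 46 and 46 in the preconditioned ones, which are 4.72, 5.15 and 6.26 against 3.62, 1.47 and 1.51 CPM. Preconditioned replicate 1 lay closer to the lowest fresh library than to the other preconditioned libraries. CCNE2 had the lowest log2 fold change of the 8 genes, −1.29, but with a standard error of 0.41 (adjusted p = 0.092). It passed both cutoffs with the DESeq2 Wald test (adjusted p = 0.017), which called 7.78% of the genes it tested (4.17% as lower), and without preconditioned replicate 1 (log2 fold change −1.86, adjusted p = 0.0088).

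**Figure D4:**
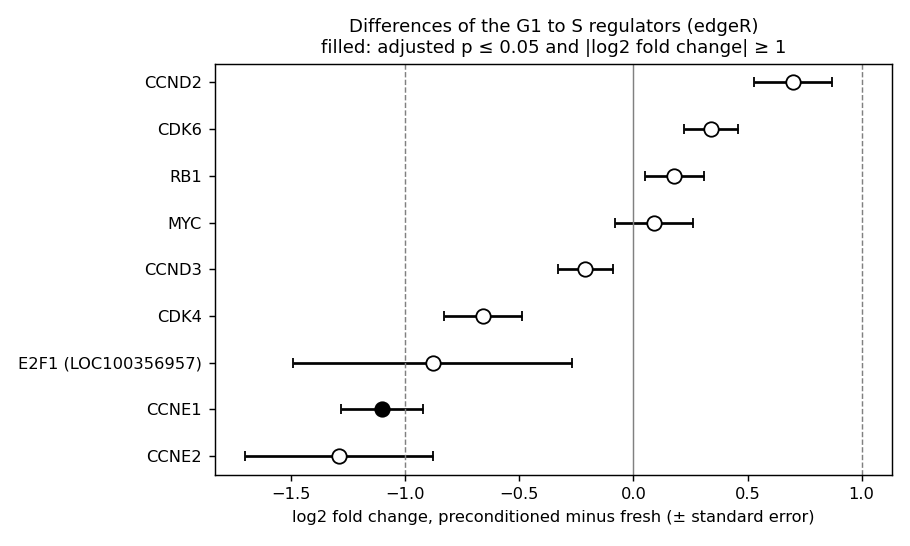
Log2 fold changes between the groups (x axis, positive where the preconditioned group is higher) of the 9 regulators, with bars for 1 standard error from edgeR and dashed lines at the fold change cutoff. CCNE1, at −1.10, is the filled point that passed both cutoffs, and CCNE2 lies lower, at −1.29, with a wider bar.

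RB1 (gene 100357431), which encodes the retinoblastoma protein that D-type cyclin kinases phosphorylate, had 52.8, 45.2 and 46.8 CPM in fresh LSCs and 48.2, 55.5 and 60.6 CPM in preconditioned LSCs. The groups overlapped, with a log2 difference of 0.18 (standard error 0.13, adjusted p = 0.37). E2F1, an activator of S phase genes that RB1 binds, was near the lower end of what could be counted, with 28, 59 and 30 counts in the fresh libraries and 36, 11 and 10 in the preconditioned ones. Preconditioned replicate 1 was inside the fresh range and the other 2 below it (log2 fold change −0.88, standard error 0.61, adjusted p = 0.36). The fold change was −0.46 without fresh replicate 2 and −1.69 without preconditioned replicate 1. A second row, LOC127489175, described as E2F1-like, had 25, 17 and 33 counts against 32, 10 and 13, and reads of near-identical copies could have been split between them. With both rows summed, an alternative chosen after seeing the data, the log2 fold change was −0.62 (adjusted p = 0.43).

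MYC (gene 100327265), a transcription factor that promotes growth and cell cycle entry, had 106.9, 127 and 92.4 CPM in fresh LSCs and 134.8, 94.1 and 119.0 CPM in preconditioned LSCs. The libraries of both groups were interleaved, with a log2 difference of 0.09 (standard error 0.17, adjusted p = 0.75), and its sign turned with scaling by library size alone (−0.07). Of 10 genes for MYC family members and partners in its network, 9 were tested and none was called by edgeR or DESeq2, with 1 at an unadjusted p under 0.05 in edgeR, beside 30.6% of all tested genes. That gene was MXI1, which encodes an antagonist of MYC, with 78.6 ± 16.7 CPM in fresh LSCs and 127.0 ± 25.4 CPM in preconditioned LSCs (SD, n = 3, log2 fold change 0.69, adjusted p = 0.080). MGA, another MAX partner, had 42.4 ± 2.80 and 32.5 ± 6.74 CPM (SD, n = 3, adjusted p = 0.17). Among 12 known MYC target genes, CAD alone was called by edgeR, which called 1.20% of all tested genes as lower, and 5 had an unadjusted p under 0.05 (30.6% of all tested genes). DESeq2, and edgeR without preconditioned replicate 1, each called CAD and NOP56, in fits that called 4.17% and 6.01% of their genes as lower. CAD, which encodes the enzyme that starts pyrimidine synthesis, had 82.5, 95.7 and 87.6 CPM in the fresh libraries and 49.9, 26.1 and 25.9 CPM in the preconditioned ones, and fell by 1.38 on the log2 scale (standard error 0.27, adjusted p = 0.041). Of the other 11, 9 had negative and 2 positive log2 fold changes, and the median of the 12 was −0.41.

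CDKN1A, which encodes p21, had 916, 1047 and 1163 CPM in the fresh libraries and 1720, 3076 and 2264 CPM in the preconditioned ones. All preconditioned libraries were above the fresh ones, and CDKN1A rose by 1.18 on the log2 scale (standard error 0.22, 2.26-fold, adjusted p = 0.039). It was the one call among 5 tested inhibitors, beside 1.08% of all tested genes called as higher. Its fold change was under the cutoff when preconditioned replicate 2 was left out (0.94, adjusted p = 0.13), and its adjusted p was 0.090 to 0.15 without any one of fresh replicates 1, 2 and 3 or without preconditioned replicate 3. Per gene length it was also the most abundant inhibitor, with 486 ± 60.0 FPKM in fresh LSCs and 969.9 ± 254 FPKM in preconditioned LSCs, where CDKN2B came next with 52.2 ± 3.76 and 44.4 ± 3.94 FPKM (SD, n = 3 each). CDKN1B, which encodes p27, had 27.99, 24.7 and 24.8 CPM against 17.4, 28.8 and 26.9 CPM, with a log2 fold change of −0.09 (adjusted p = 0.80) whose sign turned without preconditioned replicate 1 (0.10). CDKN2A and CDKN1C had no row under their symbols. LOC100340625, described as inhibitor 2A and singled out after its values were seen, had 12.1, 32.7 and 16.3 CPM against 9.67, 6.71 and 6.22 CPM (log2 fold change −1.43, standard error 0.39, adjusted p = 0.069).

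Among the other cyclins and kinases of G1, no gene was called by edgeR, while 4 of the 8 tested had an unadjusted p under 0.05 (30.6% of all tested genes). DESeq2 called 2, CCNA2 and CDK2, and edgeR without preconditioned replicate 1 called CCNA2 and CDC25A, all lower, beside 4.17% and 6.01% of all genes in those fits. CCNA2, which encodes the S phase cyclin A2, had 59.5, 42.0 and 41.6 CPM in fresh LSCs and 29.8, 8.69 and 10.9 CPM in preconditioned LSCs. Its groups were separated, with a log2 difference of −1.53 (standard error 0.47, adjusted p = 0.087). CDK2, the partner of cyclin E, is listed as LOC100134865 and had 6.49, 6.16 and 5.06 CPM against 1.40, 1.57 and 3.92 CPM. The log2 fold change of that row was −1.36 (standard error 0.43, adjusted p = 0.091), and −0.57 (adjusted p = 0.18) when summed with LOC127487420, a second row described as CDK2. This sum, too, was an alternative chosen after seeing the data.

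Of 11 genes tested for the other E2F factors, their DP partners and the RB1 relatives, 10 had negative log2 fold changes, with a median of −0.79, and 8 were lower without overlap, against 18.8% of all tested genes. E2F7 was called by edgeR, which called 1.20% of all tested genes as lower. DESeq2 called E2F2, E2F7 and E2F8, and edgeR without preconditioned replicate 1 called 6 of the 11, in fits that called 4.17% and 6.01% of all their genes as lower. E2F7, a repressor of the E2F family, had 3.91, 2.61 and 2.92 CPM in the fresh libraries and 0.973, 0.799 and 1.35 CPM in the preconditioned ones, and fell by 1.60 on the log2 scale (standard error 0.35, adjusted p = 0.050). Like those of CDKN1A and CAD, this call was lost when any one library other than preconditioned replicate 1 was left out, and E2F7 was not called with limma on log2(FPKM + 1). TFDP1, which encodes a DP partner with which most E2F factors bind DNA, was singled out after its values were seen, with 67.1, 64.8 and 67.3 CPM against 46.4, 31.7 and 31.7 CPM. Its adjusted p was 0.041 but its log2 difference of −0.86 (standard error 0.17) did not reach the cutoff. The levels of E2F genes per gene length were led by E2F4, a mainly repressive member, with 31.3 ± 2.21 FPKM in fresh LSCs and 17.5 ± 4.56 FPKM in preconditioned LSCs, while E2F1, E2F7 and E2F2 had the lowest means of the 8 in the fresh group, with ranges that overlapped in that order. Both rows described as E2F1 or E2F1-like summed to 0.799 ± 0.139 FPKM there.

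Target genes of E2F for S phase entry, such as the MCM helicase subunits and enzymes of nucleotide synthesis, had negative log2 fold changes in all 16 tested, with a median of −1.12, yet none was called by edgeR. Of the 16, 10 had an unadjusted p under 0.05 (30.6% of all tested genes) and 10 were lower without overlap (18.8% of all tested genes). MCM2 had 88.3, 80.4 and 71.3 CPM in fresh LSCs and 54.0, 17.3 and 22.8 CPM in preconditioned LSCs (log2 fold change −1.35, standard error 0.41, adjusted p = 0.086). RRM1, a subunit of ribonucleotide reductase, had 163.6, 123.4 and 121.9 CPM against 109.8, 78.7 and 86.6 CPM (log2 fold change −0.57, adjusted p = 0.085). PCNA, the sliding clamp of DNA polymerase, had 165, 143 and 136 CPM against 149, 61.8 and 58.7 CPM (adjusted p = 0.22), with preconditioned replicate 1 inside the fresh range. The median log2 ratio of the 16 genes to their fresh means was −0.29 in preconditioned replicate 1 and −2.04 and −1.66 in replicates 2 and 3. DESeq2 called 7 of the 16, and edgeR without preconditioned replicate 1 called 14, all lower, in fits that called 4.17% and 6.01% of their genes as lower. Without preconditioned replicate 2 or 3, none was called, and 3 and 2 had an unadjusted p under 0.05.

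All 8 proliferation markers had negative log2 fold changes, with a median of −1.35, and preconditioned replicate 1 again had the smallest median log2 ratio in size of the preconditioned libraries (−0.57 against −2.13 and −1.92). MKI67, which encodes Ki67, had 51.2, 33.2 and 25.2 CPM in the fresh libraries and 19.6, 5.21 and 4.51 CPM in the preconditioned ones (log2 fold change −1.90, standard error 0.61, adjusted p = 0.097). PLK1, a mitotic kinase, had 44.5 ± 8.98 and 14.7 ± 8.99 CPM (SD, n = 3 each, adjusted p = 0.066), and CCNB2, a mitotic cyclin, 59.7 ± 18.7 and 19.9 ± 12.6 CPM (adjusted p = 0.076). None of the 8 was called by edgeR, though 6 had an unadjusted p under 0.05 (30.6% of all tested genes). DESeq2 called 5, in a fit that called 4.17% of its genes as lower. Without preconditioned replicate 1, edgeR called all 8, again beside 6.01% of all genes as lower. Without any other single library, none of the 8 was called.

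Genes for the turnover of G1 cyclins and inhibitors had 10 negative log2 fold changes of 10 tested, with a median of −0.45 and no call by edgeR (6 at an unadjusted p under 0.05, beside 30.6% of all tested genes). CKS2 was called by DESeq2, which called 4.17% of its genes as lower. It was also called with library size alone (423 of all genes lower) and with limma on log2(FPKM + 1) and log2(FPKM + 0.1) (206 and 449 lower). Without preconditioned replicate 1, CKS2 and FBXO5 were called, beside 6.01% of all genes as lower. Without any other single library, none of the 10 was called. FBXW7, which marks cyclin E and MYC for degradation, had 53.3, 54.2 and 53.3 CPM against 44.2, 35.5 and 37.6 CPM, separated groups with a log2 difference of −0.45 (standard error 0.12, adjusted p = 0.063). CKS2, which binds cyclin-dependent kinases, had 46.2 ± 10.7 and 21.7 ± 7.49 CPM (SD, n = 3 each, log2 fold change −1.09, adjusted p = 0.060). The MuvB proteins and MYBL2, which assemble with RB1 relatives or drive later genes, had a median of −0.05 over 6 genes with no call by edgeR and 2 at an unadjusted p under 0.05, a share near the 30.6% of all tested genes. These were LIN9, with 9.99 ± 1.19 and 6.45 ± 1.08 CPM, and MYBL2, with 26.8 ± 3.77 and 9.44 ± 7.21 CPM (SD, n = 3 each). DESeq2, and edgeR without preconditioned replicate 1, each called MYBL2, in fits that called 4.17% and 6.01% of their genes as lower.

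**Figure D5:**
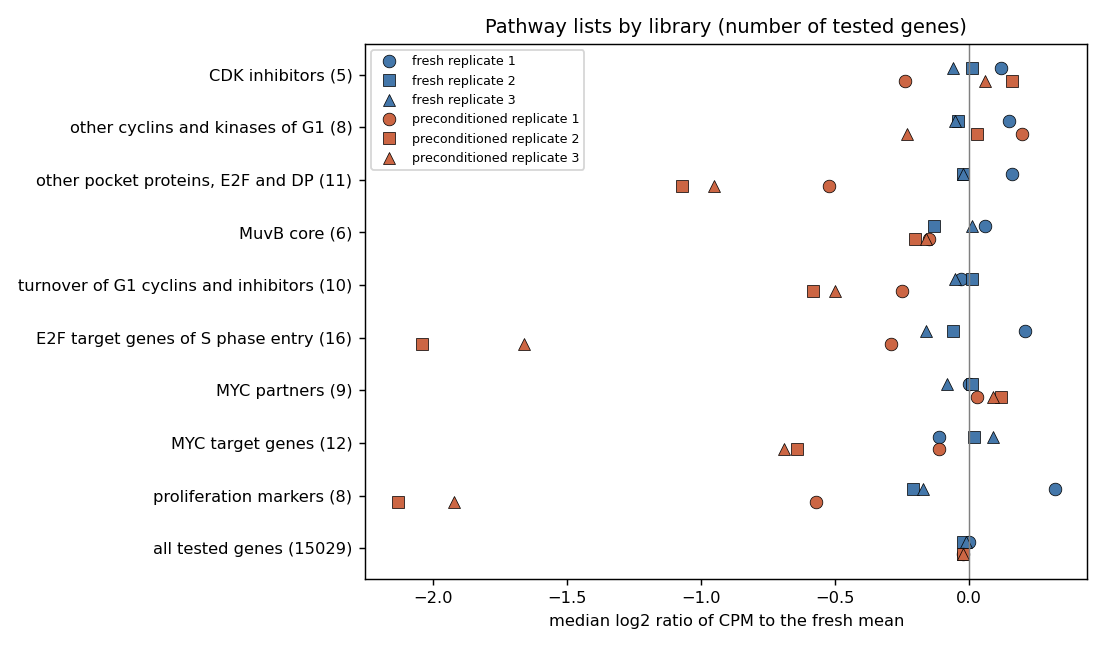
Median log2 ratio of CPM to the fresh mean (x axis) over the tested genes of each pathway list (y axis, number of genes in parentheses), with 1 point per library and all tested genes for reference. E2F targets and proliferation markers lie near −2 in preconditioned replicates 2 and 3 and at −0.29 and −0.57 in preconditioned replicate 1.

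The G1 regulators were not alike in this respect. CCNE1 was lower by a similar amount in all 3 preconditioned libraries, with log2 ratios to the fresh mean of −1.05, −1.15 and −1.12 in replicates 1 to 3. CCNE2 had −0.57, −1.87 and −1.83, and CDK4 −0.29, −0.85 and −0.91. CCND2 had 0.55, 0.75 and 0.78.

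Markers of other cells also differed between the libraries. The summed CPM of 10 genes of stromal fibroblasts and keratocytes was 529 to 1144 in fresh LSCs and 1298 to 2321 in preconditioned LSCs. COL1A1 alone was called among the 10 (91.2 ± 29.8 against 578 ± 100.3 CPM, SD, n = 3), beside 1.08% of all tested genes called as higher. That call was lost without fresh replicate 2 or preconditioned replicate 2. Without COL1A1 the stromal sums overlapped, at 472 to 1035 and 778 to 1629 CPM, and 4 of the 10 genes had negative log2 fold changes. For 6 leukocyte genes the sums were 95.9 to 131.8 and 122.8 to 311 CPM, nearly all of it CD68, with PTPRC at most 1.502 CPM in any library. Conjunctival genes (5 rows) summed to 2655 to 4690 and 1910 to 4663 CPM. The median log2 ratio of the 4 tested conjunctival genes to their fresh means was 1.42, −0.43 and −1.32 in preconditioned replicates 1 to 3. In the fresh libraries it was −0.57, 0.61 and −0.61. Melanocyte genes (6 rows) summed to 4.61 to 5.85 and 2.71 to 6.38 CPM, and endothelial genes (5 rows) to 2.67 to 3.13 and 1.06 to 13.0 CPM. The 8 epithelial genes summed to 11289 to 14695 and 10420 to 14966 CPM, most of it KRT5. Of those 8, TP63 was lower and EPCAM higher without overlap (EPCAM log2 fold change 0.50, adjusted p = 0.060). Among all tested genes, 18.8% were lower and 17.9% higher without overlap. The part of these markers in the differences of the G1 regulators was not tested.

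The genes whose log2 CPM, centred over the 6 libraries, differed least from that of a regulator were taken from all tested genes with a symbol. For CCND2 they were MSMO1 and KRT10, with root mean square differences of 0.05 and 0.07 in log2 CPM, and for CCNE1 PKD2 and RASGRP1 (0.11 and 0.12). For CCNE2 they were TCOF1 and DKC1, at 0.07 and 0.09, where CCNE2 itself deviated from its mean by 0.82. For CDK4 they were MCMBP and SLC25A13 (0.03 and 0.04), and for CDK6 BCAR3 and NDUFA6 (both 0.03). For CCND3 they were NUDT5 and VCPIP1 (both 0.04), for RB1 RNF141 and ANKRD13C (both 0.03), for MYC B4GALT5 and NT5DC1 (both 0.06) and for E2F1 CCDC82 and SWSAP1 (0.17 and 0.19). The regulators' own deviations were 0.15 for CCND3 and RB1, 0.19 for CDK6, 0.21 for MYC and 0.39 for CDK4. They were 0.40 for CCND2, 0.56 for CCNE1 and 0.77 for E2F1. The differences are therefore not comparable between regulators.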

How the data were processed

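RNA-seq was performed on primary LSCs, with 3 fresh and 3 preconditioned libraries assigned from the sample titles. Read alignment by the authors used hisat2 and gene counting used htseq-count. The authors deposited raw counts and, in a separate table, FPKM. The genome build, annotation and strand setting are not given in the sources used here. Counts were analysed with edgeR 4.0.16 in R 4.3.3 (filterByExpr, TMM, robust quasi-likelihood fit, condition as sole factor), with Benjamini-Hochberg adjustment over 15029 genes. Standard errors were derived from the F statistic. The alternatives were DESeq2 1.42.0, other scalings and filters, limma 3.58.1 on log2 FPKM, the replicate number as a block and leaving out each library. The fits were tested on simulated counts. The genes and lists were chosen with earlier results of these data known. Named genes were the regulators, 7 further genes set in the plan, the called genes of each list (at most 3) or, with none, the 2 with the smallest p, and the 2 genes most like each regulator. Symbols without a row were looked up by gene identifier in a RefSeq table (mOryCun1.1), in which 19462 of 22177 identifiers were found. With 31952352 or more counts per library, precision rests mainly on the spread between libraries, and for E2F1 also on its few counts. Protein and promoter sequences were not used here.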

Additional observations from a re-analysis of the deposited data

How the results depend on the processing

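Of the 8 genes, CCNE1 alone was called with DESeq2's size factors, library size alone, both other filters and both limma fits. With the DESeq2 Wald test 2 were called (CCNE1 and CCNE2), with glmTreat, which tests for a log2 change beyond 1, 0 (0 at an unadjusted p under 0.05), and 0 to 2 when 1 library was left out. Among all genes, in place of 344 (163 higher, 181 lower), 1190 were called with DESeq2, 565 with library size alone (142 higher, 423 lower), 590 with limma on log2(FPKM + 0.1) (141 higher, 449 lower), 24 with glmTreat, 763 with no fold change cutoff (5.08%, and CCNE1 alone of the 8) and 14 (without fresh replicate 2) to 1546 (without preconditioned replicate 1) when a library was left out. Library size alone moved the median log2 fold change of all genes from 0.01 to −0.16. Of 85 pathway genes tested in the main fit, 3 were called (CDKN1A, E2F7 and CAD), beside 2.29% of all tested genes. DESeq2 called 22, in a fit that called 7.78% of its genes. Of the pathway genes, 5 were called with library size alone, 9 with limma on log2(FPKM + 0.1) and 0 with glmTreat (7 at an unadjusted p under 0.05). When a library was left out, 0 to 36 were called, the most without preconditioned replicate 1. CDKN1A was not called with library size alone (1.0, below the cutoff before rounding) or either limma fit (0.97 in both). With the replicate number as a block, 30 genes were called, among them 0 of the 8 and 0 pathway genes (4 and 48 at an unadjusted p under 0.05). Libraries of 1 number did not deviate together (correlations −0.067, −0.073 and −0.109), and 0 of the 6 were closest to their own number. The sign of MYC turned with library size alone (−0.07), both limma fits (−0.08), without fresh replicate 3 (−0.02) and without preconditioned replicate 1 (−0.04), with a range of −0.04 to 0.22 when 1 library was left out. That of CDKN1B turned without preconditioned replicate 1, with a range of −0.22 to 0.10. The signs of the other regulators and of all 3 shares held in every alternative run. The causes were not tested. Of the 9 regulators, E2F1 and CCNE2 had the fewest counts, down to 10 and 46 in a library.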
